A study of Drosophila melanogaster with 8 samples.

Results

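The 5 genes described here carry the inhibitory transmitter GABA from synthesis to reception: Gad1, Gabat, Gat, Lcch3 and GABA-B-R3. They were taken by their gene symbol in the platform annotation, with every spot kept whatever its value. Earlier results of these data were known when they were chosen. They are 5 of the 6793 genes named on the array and 12 of its 27648 spots. Heads of unmated wild type Oregon-R males of Drosophila melanogaster were compared in 2 groups of 4 two-colour cDNA arrays, and each array set treated heads against heads of parallel males kept on normal food throughout. In the day 14 group, males aged 3 to 4 days at the start ate food with 8 mg/ml pentylenetetrazole (PTZ) for 7 days, then food with 16 mg/ml gabapentin (GBP) for 3 days, and then normal food for 4 days. The day 10 group had the same PTZ and GBP feeding and its heads were taken on the last day of GBP. The label text of 3 day 14 arrays writes ETH in place of GBP where it lists the order of feeding, so the second drug of that group rests on the array titles. Every sample was RNA from a pool of heads.

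GABA is the main inhibitory transmitter of the adult fly brain. It is made from glutamate by glutamic acid decarboxylase, acts on chloride channels and on G protein-coupled receptors, is taken back up by a membrane transporter that in flies is found on glia, and is broken down by a transaminase. PTZ blocks ionotropic GABA receptors, which makes it a convulsant, and gabapentin is an anticonvulsant built as an analogue of GABA that in mammals binds a calcium channel subunit rather than GABA receptors. The comparisons ask whether transcripts of this pathway were at another level than in control heads, first directly after gabapentin and then after 4 days of normal food.

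No gene of GABA synthesis, breakdown, uptake or reception passed the test on either day. Of the 5 genes, 1 could be tested at day 14 (Gad1) and 3 at day 10 (Gad1, Gabat and Lcch3), since the test took genes with 3 or 4 measured arrays per day. All 4 mean log2 ratios lay between -0.31 and 0.093. At an adjusted p threshold of 0.05, limma's moderated test passed 0 of 6142 genes and unnamed features at day 14 (0%) and 0 of 11312 at day 10 (0%). At an unadjusted p under 0.05 the shares were 1.12% (69) and 5.28% (597), and none of the GABA genes was among them. In RNA from whole heads, fewer cells of a type and less RNA per cell cannot be told apart.

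The values are log2 ratios of the 2 dye channels, and their direction is not settled. The labels state which dye carried treated RNA. On each day it was Cy5 for the first 2 replicates and Cy3 for replicates 3 and 4, the swapped arrays. They do not state which dye is the numerator or whether swapped arrays had been turned before deposit. Ratios were read as Cy5 over Cy3 and the sign of replicates 3 and 4 was turned, so that on this reading a turned value above 0 stands for more signal in treated heads. Arrays also had offsets of their own. After turning, the day 14 arrays had medians between -0.48 and 0.29, and the day 10 arrays between -0.83 (replicate 1) and 0.11. The offsets drifted along the table as well. Values are therefore also given centred on the array median, and centred by position, for which the medians of long and then of short stretches of the table were taken off. A short stretch was 24 spots, blanks included, and its median took in the gene's own spots. Centring by position can thus remove part or all of a gene's own ratio. On day 14 replicate 1 it left the spots of Gad1 at -0.12 and 0.12 and their mean at 0. An array ratio holds no level, so the head could be checked against marker genes only by which spots passed the authors' filter. Of 6 photoreceptor markers named on the array, 4 had values on at least 3 arrays at day 14 and 5 at day 10. For 6 glial markers the counts were 3 and 6, and for 1 neuronal marker 1 and 1. For 3 muscle markers they were 2 and 3, and for 4 fat body markers 3 and 3. Of all 6793 named genes, 2586 met this rule at day 14 and 5071 at day 10. The counts therefore do not set head apart from other tissue.

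Each GABA gene was printed as pairs of neighbouring spots, 2 pairs for Gad1 and 1 pair for each of the others. A blank stands for a spot that the authors' filter removed and is not a level of 0. The 12 spots held 50 values on the 8 arrays, 52.1% of the possible 96, against 52.1% over all features. Gad1 had values on 4 arrays at day 14 and 3 at day 10, Gabat and Lcch3 on 2 and 4, Gat on 2 and 1, and GABA-B-R3 on none and 1. The spots of a pair were blank together throughout these genes, and over the whole table only 0.165% of measured pairs had 1 spot blank. The 25 measured pairs of the GABA genes differed by a median of 0.23 log2 units between their spots, with a range from 0.016 to 1.56. In 4 of the 25 pairs the spots had opposite signs.

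**Figure D1:**
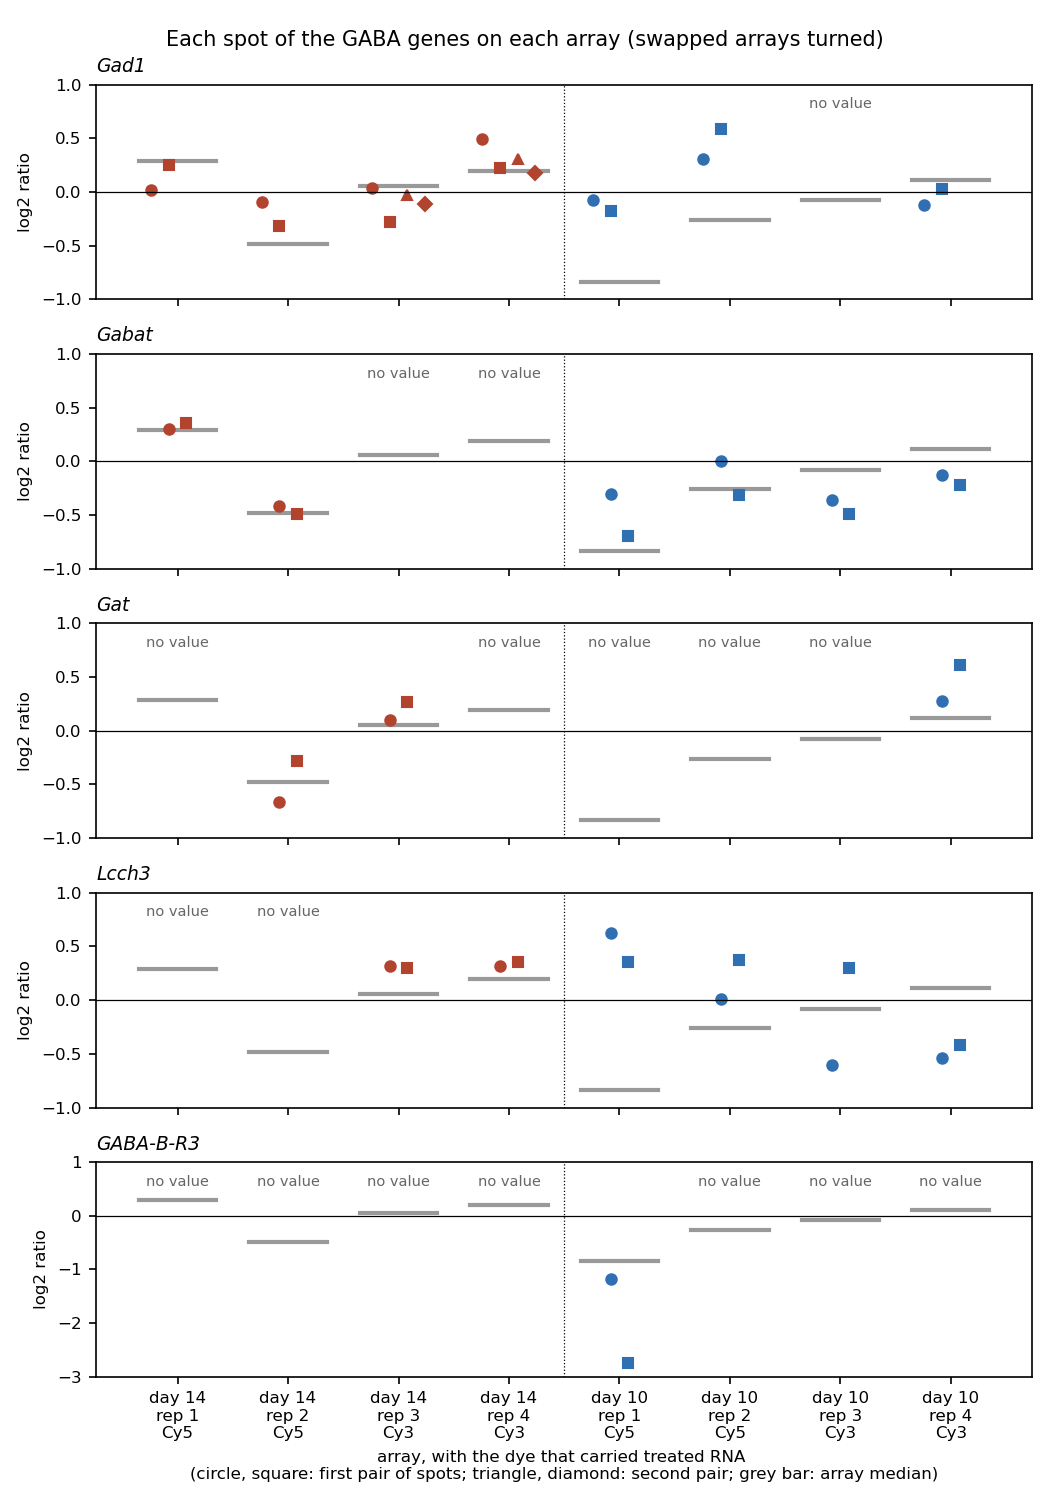
Turned log2 ratio (vertical axis) of every spot of the 5 GABA genes on every array (horizontal axis), day 14 arrays on the left and day 10 arrays on the right, with the dye that carried treated RNA; symbols mark the spots, grey bars the median of all features on the array, and arrays without a value are marked. Gad1 and Lcch3 lie on both sides of 0, the 4 day 10 means of Gabat lie below 0, and GABA-B-R3 has 2 spots on 1 array, at -1.18 and -2.74.

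Gad1 encodes glutamic acid decarboxylase, the enzyme that makes GABA. Its turned values, averaged over spots, were 0.13, -0.21, -0.096 and 0.30 on day 14 replicates 1 to 4, against -0.12, 0.45 and -0.044 on day 10 replicates 1, 2 and 4. Both days had arrays on either side of 0, and their ranges overlapped. The mean was 0.033 ± 0.23 at day 14 (SD, n = 4) and 0.093 ± 0.31 at day 10 (SD, n = 3). Neither mean passed (limma adjusted p = 1 at day 14 and 0.892 at day 10). The 95% interval from the fit, not adjusted for the number of genes, ran from -0.47 to 0.53 at day 14, a ratio between 0.723 and 1.45. At day 10 it ran from -0.51 to 0.70, a ratio between 0.703 and 1.62.

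The day 14 mean of Gad1 minus its day 10 mean was -0.06 ± 0.38 (SE; limma adjusted p = 0.974), the only difference between days among these genes in the fit to all 8 arrays with 3 or 4 values on each day. The interval of that difference, from -0.83 to 0.71, was wide against its size. The difference was -0.40 with arrays centred, -0.31 with array weights, -0.19 without the sign change and -0.14 centred by position, and it did not pass in these fits (limma adjusted p = 1.00, 0.454, 0.995 and 0.953). The array weights ran from 0.27 on day 14 replicate 2 to 6.97 on day 14 replicate 3, so the weighted fit drew unevenly on the arrays. Of 5187 genes and features tested for a difference between days, 0 passed (0%) and 112 had an unadjusted p under 0.05 (2.16%).

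The spots of Gad1 show how far 1 array can be read. On day 14 replicate 3 its first pair stood at 0.039 and -0.28 after turning and its second pair at -0.024 and -0.12. On day 14 replicate 4 the first pair stood at 0.50 and 0.22 and the second at 0.30 and 0.18. The pairs thus had the same order of arrays, with replicate 4 above replicate 3 at each of the 4 spots. The second pair had values on those 2 arrays and no others. On day 10 the first pair stood at -0.076 and -0.17 on replicate 1, at 0.31 and 0.59 on replicate 2, and at -0.12 and 0.032 on replicate 4, so replicate 2 was the array that put the day 10 mean above 0, and without it the mean was -0.084. Against the array medians Gad1 stood at -0.15, 0.27, -0.15 and 0.11 on day 14 replicates 1 to 4, and at 0.71, 0.71 and -0.16 on the 3 day 10 arrays. On both day 10 arrays with treated RNA in Cy5 Gad1 lay 0.71 above the array median, and on the array with treated RNA in Cy3 it lay below it. With arrays centred the means were 0.019 at day 14 and 0.42 at day 10 (limma adjusted p = 0.998 and 0.995), and centred by position 0.039 and 0.18 (limma adjusted p = 0.998 and 0.810).

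Gabat encodes GABA transaminase, the mitochondrial enzyme that breaks GABA down to succinic semialdehyde. Its turned values were 0.33 and -0.45 on day 14 replicates 1 and 2, against -0.50, -0.15, -0.43 and -0.18 on day 10 replicates 1 to 4. After turning, the mean of the Gabat spots was below 0 on all 4 day 10 arrays. As deposited it was below 0 on replicates 1 and 2 and above 0 on replicates 3 and 4. On day 10 replicate 2 the spots had opposite signs, at 0.007 and -0.31. Tested alone, the first spot had a day 10 mean of -0.20 and the second of -0.43 (limma adjusted p = 0.809 and 0.789). The 2 day 14 arrays had opposite signs, with replicate 1 above the day 10 range and replicate 2 within it. The day 10 mean was -0.31 ± 0.18 (SD, n = 4) with an interval from -0.86 to 0.23, and it did not pass (limma adjusted p = 0.772). The median of all genes and features at day 10 was itself -0.25, and Gabat lay 0.064 below that median.

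The day 10 values of Gabat did not keep 1 sign once array offsets were taken out. Against the array medians it stood at 0.33 and 0.11 on replicates 1 and 2 and at -0.35 and -0.29 on replicates 3 and 4. Centred by position the values were 0.70 and 0.26 on replicates 1 and 2 and -0.48 and -0.45 on replicates 3 and 4. The split lay along the dye orientation, and so along replicates 1 and 2 against 3 and 4. With either centring both arrays with treated RNA in Cy5 were above 0 and both with treated RNA in Cy3 below it. The mean was -0.048 with arrays centred and 0.0085 centred by position (limma adjusted p = 0.995 and 0.994). At day 14 the array medians were 0.29 and -0.48 on the 2 arrays with values, and Gabat lay within 0.041 and 0.029 of them. Its spots differed by 0.056 and 0.077 on those arrays, and by 0.39, 0.32, 0.13 and 0.098 on day 10 replicates 1 to 4. Averaging its 2 day 14 arrays gave -0.061 ± 0.55 (SD, n = 2).

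Gat encodes the plasma membrane GABA transporter, which clears GABA from the extracellular space. It had values on 3 arrays in all, too few on either day for the test used above. After turning, its 2 spots stood at -0.66 and -0.28 on day 14 replicate 2 and at 0.10 and 0.27 on day 14 replicate 3, against 0.27 and 0.62 on day 10 replicate 4. The 2 day 14 arrays lay on opposite sides of 0, and the single day 10 array lay above both. As deposited all 6 spot values of Gat were below 0, so the sign on 2 of its 3 arrays comes from the turning. Against the array medians the gene stood at 0.009 and 0.13 on the day 14 arrays and at 0.33 on the day 10 array, and centred by position at 0.12 and 0.15 and at -0.059. The spots of a pair differed by 0.39, 0.17 and 0.34 on the 3 arrays, more than the median pair of the same array each time.

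Lcch3 encodes a subunit of the ligand-gated chloride channel family to which the ionotropic GABA receptors belong, the class of receptor that PTZ blocks. Its turned values were 0.31 and 0.33 on day 14 replicates 3 and 4, against 0.49, 0.19, -0.16 and -0.48 on day 10 replicates 1 to 4. After turning, both day 14 values lay inside the day 10 range. As deposited they were -0.31 and -0.33, so their place beside the day 10 values depends on the turning. The day 10 mean was 0.012 ± 0.42 (SD, n = 4) with an interval from -0.54 to 0.57, a ratio between 0.686 and 1.48 (limma adjusted p = 0.984). Without replicate 1 the mean was -0.15, and without replicate 4 it was 0.17.

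At day 10 the turned values of Lcch3 lay above 0 with treated RNA in Cy5 and below 0 with it in Cy3. Their mean was near 0. Cy5 was replicates 1 and 2 and Cy3 replicates 3 and 4, so dye and array differences cannot be told apart. As deposited, Lcch3 was above 0 on all 4 day 10 arrays, at 0.49 and 0.19 with treated RNA in Cy5 and at 0.16 and 0.48 with treated RNA in Cy3. With a term for the dye in the fit, the part of the ratio that did not change with the orientation was 0.33 ± 0.22 (SE; limma adjusted p = 0.374), while the median of that term over all 12267 genes and features was -0.22. For Gad1 and Gabat the same term was -0.0001 ± 0.17 and -0.012 ± 0.23 (SE; limma adjusted p = 1.00 and 0.98). At day 14 Lcch3 had values only with treated RNA in Cy3 and Gabat only with it in Cy5. For these 2 genes the term therefore rests on the day 10 arrays alone. For Lcch3 it is the same value as the day 10 mean without the sign change, 0.33 (limma adjusted p = 0.373). The day 14 values of Lcch3, deposited at -0.31 and -0.33, did not enter it.

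Arrays of 1 dye orientation run the same way whatever the numerator, so they allow a comparison of days that does not rest on turning. With treated RNA in Cy3, Lcch3 had deposited values of -0.31 and -0.33 at day 14, against 0.16 and 0.48 at day 10. In the fit to those 4 arrays the difference on the turned scale, day 14 minus day 10, was 0.64 ± 0.34 (SE, n = 2 each), with an interval from -0.041 to 1.31, and it did not pass (limma adjusted p = 1.00, where 15 of 4743 passed, 0.316%). The median difference over all genes and features in that fit was 0.0975. How many of them had days lying apart on these 4 arrays was not counted. Centred on the array medians and turned, Lcch3 stood on the same arrays at 0.25 and 0.14 at day 14 and at -0.076 and -0.59 at day 10. Centred by position and turned, it stood at 0.36 and 0.082 at day 14 and at 0.25 and 0.10 at day 10, and the days overlapped. With treated RNA in Cy5, Gad1 had 0.13 and -0.21 at day 14 and -0.12 and 0.45 at day 10, and Gabat had 0.33 and -0.45 at day 14 and -0.50 and -0.15 at day 10. In both genes the days overlapped, with differences of -0.20 ± 0.59 and 0.26 ± 0.59 (SE, n = 2 each; limma adjusted p = 0.918 and 0.903, where 0 of 3108 passed, 0%).

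**Figure D2:**
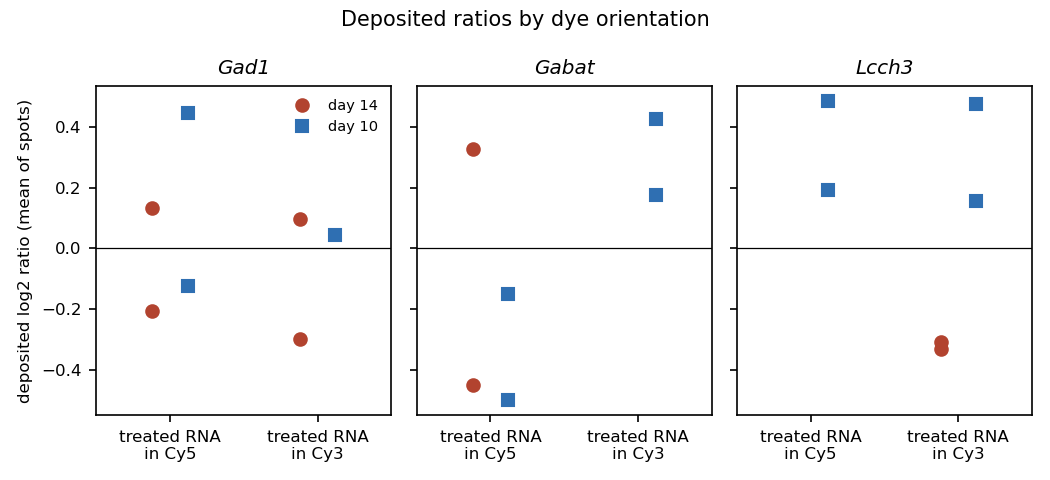
Deposited log2 ratio, averaged over spots (vertical axis), of Gad1, Gabat and Lcch3 on arrays with treated RNA in Cy5 and in Cy3 (horizontal axis); red circles are day 14 arrays and blue squares day 10 arrays. At day 10 Lcch3 lies above 0 in both orientations, Gabat lies below 0 with treated RNA in Cy5 and above 0 with treated RNA in Cy3, and the 2 day 14 values of Lcch3 lie near -0.32.

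The spots of Lcch3 agreed closely at day 14 and less so at day 10. They differed by 0.016 and 0.036 on the 2 day 14 arrays, less than all but 5.96% and 12.1% of the pairs there. On day 10 replicate 3 they stood at -0.61 and 0.30 after turning, a difference of 0.90 that was larger than in 96.0% of the pairs on that array, and the array's mean of -0.16 stands for neither spot. On the other day 10 arrays the spots stood at 0.62 and 0.35, at 0.009 and 0.38, and at -0.54 and -0.41 on replicates 1, 2 and 4. Tested alone, the first spot had a day 10 mean of -0.13 and the second of 0.15 (limma adjusted p = 0.862 and 0.835). As deposited, both spots lay high on their array on day 10 replicates 1, 2 and 4. They were above 96.9% and 93.3% of all features on replicate 1, 75.1% and 92.7% on replicate 2, and 86.7% and 81.8% on replicate 4. On replicate 3 the first spot was above 90.5% and the second above 21.0%. Centred by position and turned, Lcch3 stood at 0.048, -0.07, 0.25 and 0.10 on replicates 1 to 4, with a mean of 0.083 (limma adjusted p = 0.881).

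GABA-B-R3 encodes a receptor of the metabotropic GABA-B class, which signals through G proteins. It had no value on any day 14 array and values on 1 day 10 array, replicate 1, where its spots stood at -1.18 and -2.74. That array had the lowest median of the 8, at -0.83, and against this median the spots were at -0.34 and -1.90. The second spot was below all but 2.26% of the features on the array and the first below all but 26.5%. The spots differed by 1.56, more than in 96.3% of the pairs there, and centred by position they lay on opposite sides of 0, at 0.23 and -1.33. With 1 array there is no replicate check.

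Over the 3 genes tested at day 10, none of 4 readings of the values brought a call. The order of the genes changed only without the sign change. The day 10 means of Gad1, Gabat and Lcch3 were 0.093, -0.31 and 0.012 with swapped arrays turned, 0.12, -0.012 and 0.33 without the sign change, 0.42, -0.048 and 0.28 with arrays centred, and 0.18, 0.0085 and 0.083 centred by position. Gabat had the lowest mean under each of these 4 readings, and Gad1 the highest under 3 of them. The SE of Gad1 at day 10 was 0.12 when centred by position, against 0.28 with turned, uncentred arrays. Centring by position can take off part or all of a gene's own ratio. The median of all genes and features at day 10 was 0.027 with arrays centred and 0.0078 by position, against -0.25 with turned, uncentred arrays and -0.30 without the sign change. On the turned, uncentred scale Gad1, Gabat and Lcch3 lay at 0.34, -0.064 and 0.26 relative to the median, while without the sign change all 3 means lay above it.

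**Figure D3:**
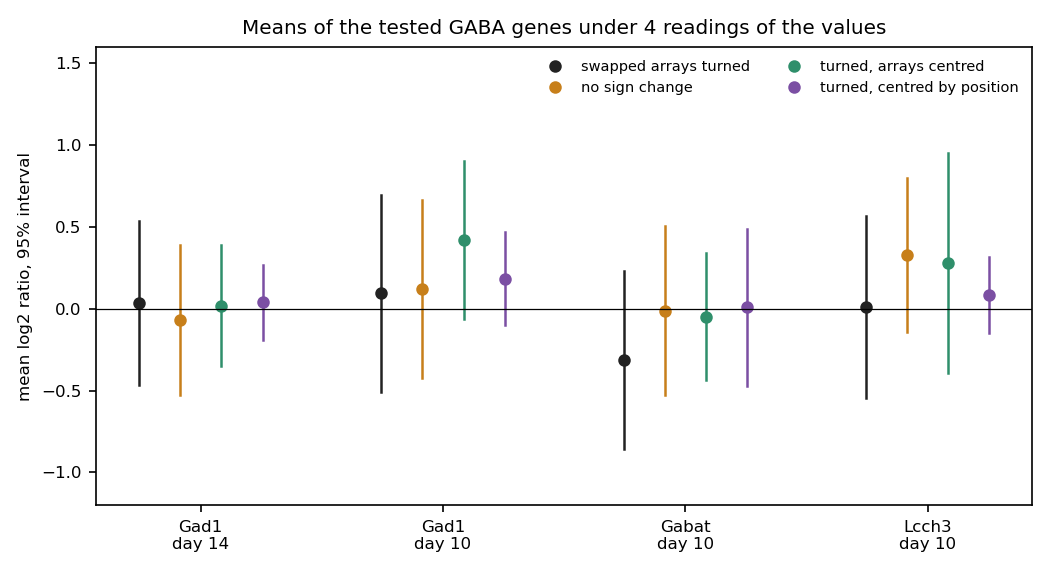
Mean log2 ratio (vertical axis, with 95% intervals from limma as lines) of Gad1 at day 14 and of Gad1, Gabat and Lcch3 at day 10 (horizontal axis) under 4 readings of the values. All 16 intervals include 0, and the means range from -0.31 to 0.42.

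The neighbouring steps of the pathway gave no call either. Of 13 genes listed for GABA signalling, 6 were named on the array, the 5 above and Ssadh. The listed genes Rdl, Grd, VGAT, GABA-B-R1 and GABA-B-R2 were not among the named genes and have no values here. Ssadh encodes succinic semialdehyde dehydrogenase, which takes up the product of Gabat. It stood at -0.49 and -0.15 on day 14 replicates 3 and 4, against -1.45, 0.31 and 1.47 on day 10 replicates 1, 3 and 4. The 3 day 10 arrays of Ssadh had both signs and lay farther apart than those of any GABA gene above. Their mean was 0.11 ± 0.44 (SE, n = 3; limma adjusted p = 0.918), with the largest SE of the day 10 means given here. The day 10 array values of Ssadh as deposited were all below 0, at -1.45, -0.31 and -1.47.

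Glutamate, from which GABA is made, reaches neurons through glutamine made by glutamine synthetase and through uptake. Of 11 genes listed for this supply, 4 were named on the array, all 4 were tested on both days, and 0 passed. Gs2, the cytosolic glutamine synthetase of glia, stood at 0.45, -0.54, -0.47 and 0.09 on day 14 replicates 1 to 4, against -0.98, -0.27, -0.40 and -0.20 on day 10 replicates 1 to 4. After turning, Gs2 was below 0 on all 4 day 10 arrays and had both signs at day 14. As deposited its day 10 values were -0.98, -0.27, 0.40 and 0.20, also with both signs. Its means were -0.12 ± 0.25 at day 14 and -0.46 ± 0.26 at day 10 (SE, n = 4 each; limma adjusted p = 1 and 0.772). Against the array medians the day 10 values of Gs2 stayed below 0 on all 4 arrays, at -0.15, -0.012, -0.32 and -0.31. Centred by position they were -0.057, 0.36, -0.011 and 0.14, with both signs. Gs1, the mitochondrial glutamine synthetase, had means of 0.048 at day 14 and -0.37 at day 10. Gdh, glutamate dehydrogenase, had -0.054 and 0.024, and Eaat2, a transporter of the excitatory amino acid family, had -0.24 and -0.20. The median of the 4 genes was -0.085 at day 14, beside -0.00067 over all genes and features, and -0.29 at day 10, beside -0.25.

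Of 8 other ligand-gated chloride channel genes listed, GluClalpha was the 1 named on the array. This glutamate-gated channel had means of 0.04 ± 0.26 at day 14 and -0.11 ± 0.28 at day 10 (SE, n = 4 each; limma adjusted p = 1 and 0.875). Of 3 cation-chloride cotransporter genes, which set the chloride gradient that GABA receptors use, Ncc69 was named on the array. Ncc69 had no value at day 14 and a mean of 0.046 ± 0.31 at day 10 (SE, n = 3; limma adjusted p = 0.951).

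**Figure D4:**
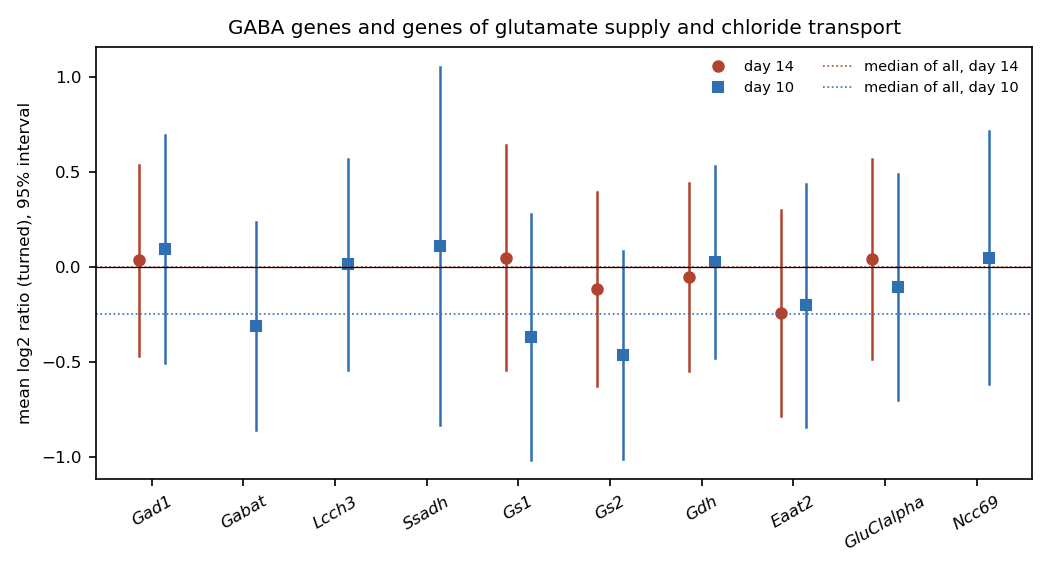
Mean turned log2 ratio (vertical axis, with 95% intervals from limma as lines) of the tested GABA genes and of the tested genes of GABA breakdown, glutamate supply, glutamate-gated chloride channels and chloride transport (horizontal axis), day 14 as red circles and day 10 as blue squares; dotted lines mark the median of all genes and features for each day. Every interval includes 0, and the widest belongs to Ssadh at day 10.

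Likeness of pattern across arrays was to be listed for GABA genes with values on all 8 arrays, and none of the 5 had them.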

How the data were processed

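The table holds what the authors deposited, a log2 ratio of both channels for each spot and array. Per the series' design text, spots were quantified in GenePix Pro 6.0, and the authors normalized ratios in Acuity 4.0 and removed weak, saturated or irregular spots. Base 2 follows from the values. Symbols were updated by gene identifier (14894 of 15116 features with 1 symbol matched RefSeq, 102 had several symbols and 12430 none), spots of a gene were averaged, and unnamed features kept their own rows. With limma 3.58.1 (R 4.3.3), 1 mean per day was fitted across the 8 arrays, for genes and features with 3 or 4 values on a day. Benjamini-Hochberg adjustment ran over the whole table. Per the labels each array is a biological replicate, and 4 per day limit the precision (median SE 0.269 at day 14 and 0.299 at day 10). Arrays held 6628 to 14095 values at day 14 and 12929 to 19719 at day 10. All 5 genes and the listed pathway genes were named by rule, whatever their values. The members and lists were chosen with earlier results of these data known. The fit was tested on simulated noise without array offsets, dye bias or drift along the table. The simulated shifts were larger than the means tested for these genes, so differences of that size were not covered. Signal over background was not analysed here.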

Additional observations from a re-analysis of the deposited data

Results flagged for a closer look

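The second spot of Lcch3 at day 10 had 1 array far from the other three. Its turned values were 0.35, 0.38, 0.30 and -0.41 on replicates 1 to 4, and the gap between replicate 4 and the next array was 0.896 of the whole range, above Dixon's 95% critical value for 4 samples. Which array stands apart depends on the turning: as deposited the values were 0.35, 0.38, -0.30 and 0.41, and replicate 3 was the one far from the rest. The first spot of the same gene stood at -0.54 on that array and at -0.61 on replicate 3. Of the 9 groups of 4 arrays examined 1 met this criterion, and chance flags about 1 in 20. The 9 groups were gene means and the single spots that enter them, so they are not independent of one another.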

How the results depend on the processing

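No GABA gene passed under any of the alternatives run, with adjusted p-values from 0.373 to 1 over 60 values from other settings and from 0.439 to 1 over 40 values with 1 array left out. Not all of these values are separate checks. A day's mean cannot move when an array of the other day, or one where the gene was blank, is left out. Asking for values on at least 2 or on all 4 arrays, or fitting each day alone, also left the means as they were. The count of all genes and features past the threshold, 0 for day 14, day 10 and their difference, did change. For day 14 it was 1 without the sign change, 1 with values on all 4 arrays, 2 with a dye term, 1156 with array weights and 2 with each day fitted alone. For day 10 it was 57 without the sign change, 12 with a dye term, 86 with array weights, 441 on the Cy5 arrays alone, 67 on the Cy3 arrays alone and 3 with each day fitted alone. For the difference it was 2 with a dye term, 670 with array weights and 15 on the Cy3 arrays alone. The weights at day 14 were 0.78, 0.27, 6.97 and 2.41 on replicates 1 to 4. The weighted counts for day 14 and for the difference thus lean most on day 14 replicate 3. Replicate numbers were not taken as pairs, since the deviations of same-numbered arrays correlated at 0.37, 0.22 and 0.19 for replicates 2 to 4 but at 0.03 for replicate 1, and day 10 replicates 1 and 4 correlated best with day 14 replicates 2 and 3 (0.29 and 0.20). With the replicate block the counts were 1 at day 14, 31 at day 10 and 2 for the difference, and Gad1 stood at 0.033, 0.05 and -0.017. With 1 array left out, counts ran from 0 to 1 at day 14 (1 without day 14 replicate 3 or day 10 replicate 1, 2 or 4), stayed at 0 at day 10 and ran from 0 to 16 for the difference (16 without day 10 replicate 4, 2 without day 14 replicate 3). Means then ran from -0.056 to 0.11 for Gad1 at day 14, -0.084 to 0.20 for Gad1 at day 10, -0.17 to 0.12 for its difference, -0.37 to -0.25 for Gabat and -0.15 to 0.17 for Lcch3. Signs turned for Gad1 at day 14 without the sign change (-0.069), on the Cy5 arrays alone (-0.036) and for its second spot alone (-0.033), for the difference in Gad1 by its first spot alone (0.078), for Gabat at day 10 centred by position (0.0085), and for Lcch3 at day 10 on the Cy3 arrays alone (-0.32) and by its first spot alone (-0.13). The cause of these changes was not tested. With values on at least 2 arrays of a day, day 14 means were 0.32 ± 0.35 for Lcch3, -0.061 ± 0.34 for Gabat and -0.14 ± 0.36 for Gat (SE, n = 2 each; limma adjusted p = 1).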
